A study of Mus musculus with 9 samples.

Results

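The genes described here are 10 genes known from the intercalated cells of the kidney, the acid- and base-secreting cells of the connecting tubule and collecting duct. They were chosen by symbol in the GENCODE M21 annotation: Slc4a1, Slc4a9, Slc26a4, Atp6v1b1, Atp6v1g3, Atp6v0d2, Atp6v0a4, Foxi1, Insrr and Rhcg. All 10 were found among the 29678 genes of the count tables, and all 10 passed the filter on low counts that left 17967 genes for testing.

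Polyadenylated RNA of mouse kidney tissue was sequenced in 3 groups, 24 h after reperfusion: Sham (sham-operated), bIRI (bilateral ischemia-reperfusion injury, without pretreatment) and BHBNa_bIRI (injured in the same way and pretreated with BHB sodium, the salt of the ketone body beta-hydroxybutyrate). The sources used here do not give strain, genotype, age, sex, ischemia time, the dose or timing of BHB, or whether each library came from its own animal. P-values therefore measure only the spread between libraries, which may be technical. Each group had 3 deposited libraries, but every one of the 29678 values of bIRI replicate 2 was the average of those of replicates 1 and 3 of that group, rounded down. It was left out, so that n is 3 for Sham, 2 for bIRI and 3 for BHBNa_bIRI.

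Total counts of the 8 libraries ran from 33477985 to 45909063. Levels are given in CPM, counts relative to library size after TMM scaling, and 3 counts correspond to 0.0646 to 0.0815 CPM. Transcripts of the mitochondrial genome made up 24.0% to 30.3% of BHBNa_bIRI counts, 15.9% in bIRI and 11.2% to 13.3% in Sham; the part of this share in the results was not tested. The bIRI libraries stood apart from each other: the root mean square difference in log2(CPM + 0.5) was 0.867 over all genes tested, against 0.286 to 0.435 between libraries within the other groups. The lincRNA share of counts was also highest in bIRI replicate 3, at 0.573%, against 0.140% to 0.179% elsewhere. Over the 10 intercalated cell genes the same distance between both bIRI libraries was 2.17, against 0.223 to 0.489 within the other groups. Levels of these 10 genes in bIRI are therefore given by library. Most genes of the other lists are given by their fold changes alone.

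Intercalated cells come in several kinds. Type A cells secrete protons into the urine through an apical proton pump (the vacuolar H+-ATPase, or V-ATPase) and return bicarbonate to the blood through the basolateral exchanger AE1, encoded by Slc4a1. Type B cells place the pump on the other side and secrete bicarbonate through the apical chloride-bicarbonate exchanger pendrin, encoded by Slc26a4, and they carry the basolateral transporter AE4, encoded by Slc4a9. The pump of these cells uses subunits of restricted expression. Among them are those encoded by Atp6v1b1 (B1) and Atp6v1g3 (G3) of the cytosolic V1 sector. Atp6v0d2 (d2) and Atp6v0a4 (a4) encode others, of the membrane V0 sector. Foxi1 encodes the forkhead transcription factor that is required for intercalated cells to form. Insrr encodes a receptor of the insulin receptor family that senses alkaline pH, and Rhcg encodes an ammonia channel of intercalated and other collecting duct cells.

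Promoters are shown for 4 of these genes because they divide by what happened in the injured kidney: Slc26a4 and Atp6v0a4 were low in both bIRI libraries, whereas Atp6v1b1 and Rhcg were low in bIRI replicate 1 and not, or less so, in bIRI replicate 3. Each sequence runs 5′ to 3′ along the gene's strand, from 250 bases before to 50 bases after the start of transcription, from RefSeq on GRCm38.p6. Capitals mark matches to a forkhead core motif, GTAAACA or ATAAACA, searched on both strands.
Slc26a4, chr12:31559935-31560234, minus strand: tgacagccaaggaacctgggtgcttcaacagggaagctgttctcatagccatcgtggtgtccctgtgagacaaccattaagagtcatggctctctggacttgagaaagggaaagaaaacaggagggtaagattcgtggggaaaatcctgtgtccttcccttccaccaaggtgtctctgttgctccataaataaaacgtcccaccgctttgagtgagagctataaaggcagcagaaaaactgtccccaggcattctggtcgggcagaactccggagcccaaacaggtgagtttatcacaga
Atp6v0a4, chr6:38124537-38124836, minus strand: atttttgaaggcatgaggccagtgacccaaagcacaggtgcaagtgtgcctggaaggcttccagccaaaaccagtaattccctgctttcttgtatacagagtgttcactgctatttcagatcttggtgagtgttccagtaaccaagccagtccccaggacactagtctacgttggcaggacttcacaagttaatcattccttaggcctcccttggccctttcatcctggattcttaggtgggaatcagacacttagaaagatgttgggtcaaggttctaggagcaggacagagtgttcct
Atp6v1b1, chr6:83742767-83743066, plus strand: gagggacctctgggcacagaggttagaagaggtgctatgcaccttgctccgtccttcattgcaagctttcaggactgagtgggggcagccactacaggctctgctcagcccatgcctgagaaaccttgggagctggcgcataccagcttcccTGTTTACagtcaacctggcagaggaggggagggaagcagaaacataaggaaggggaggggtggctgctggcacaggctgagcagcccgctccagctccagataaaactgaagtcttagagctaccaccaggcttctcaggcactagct
Rhcg, chr7:79617608-79617907, minus strand: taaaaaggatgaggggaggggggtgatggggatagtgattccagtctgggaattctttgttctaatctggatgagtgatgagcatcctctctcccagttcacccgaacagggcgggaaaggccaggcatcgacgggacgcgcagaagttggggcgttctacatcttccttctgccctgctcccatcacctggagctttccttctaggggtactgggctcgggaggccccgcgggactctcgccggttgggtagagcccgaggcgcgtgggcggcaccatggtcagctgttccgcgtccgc
RefSeq promoters were matched for 6 of the 10 genes, and the other genes, Slc4a1, Slc4a9, Atp6v0d2 and Insrr, were not matched. Of these 6 promoters, which include those of Atp6v1g3 and Foxi1, 1 held a forkhead match, where 7.97% of 32851 promoters of the same length did. That match, in Atp6v1b1, begins at position -98 from the start and reads GTAAACA on the opposite strand. A match is a description of the letters and not a binding site. Among the 4 sequences shown, Rhcg held the most CG pairs, 19 at 60.7% GC, and Atp6v0a4 the fewest, 1 at 48.0% GC. Slc26a4 held 6 CG pairs and Atp6v1b1 held 3. The number of CG pairs thus did not divide these genes as their levels in bIRI did.

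In Sham kidneys the pump subunit gene Atp6v0a4 led the list by level per transcript length, at 93.7 CPM per kilobase (range 79.9 to 119, n = 3). Rhcg followed at 67.1, Atp6v1b1 at 37.5, Slc26a4 at 30.1, Slc4a1 at 21.02, Slc4a9 at 17.5, Foxi1 at 16.4, Atp6v1g3 at 13.4, Atp6v0d2 at 11.5 and Insrr at 5.93 CPM per kilobase. Neighbours in this order from Slc4a1 to Atp6v0d2 had overlapping ranges, while the libraries of all other neighbours did not overlap. In BHBNa_bIRI the order began with Rhcg at 29.2 and Atp6v0a4 at 21.7 CPM per kilobase, with overlapping ranges. It ended with Insrr at 1.27 and Slc4a1 at 1.12 CPM per kilobase, again overlapping, so that Slc4a1 had moved from the fifth place to the last.

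**Figure D1:**
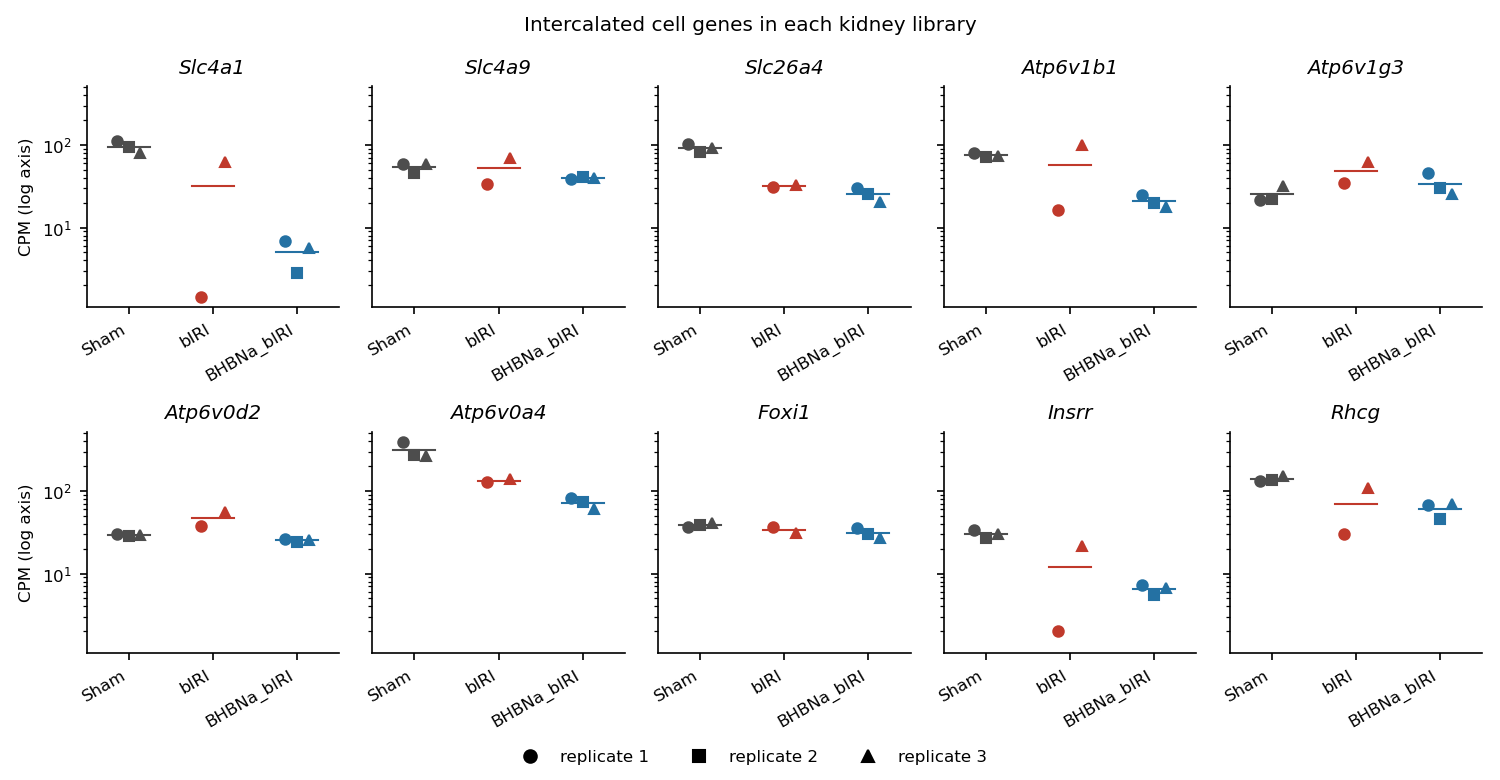
Level of each of the 10 genes in CPM (log axis) in every library, by group, with symbols for the replicate and a bar at the group mean. The bIRI libraries lie close together for Slc26a4 (31.2 and 33.1 CPM) and far apart for Slc4a1 (1.44 and 62.1 CPM).

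The first comparison set the injured kidneys of bIRI against Sham. The type B exchanger gene Slc26a4 and the pump gene Atp6v0a4 fell, and the pump genes Atp6v1g3 and Atp6v0d2 rose. The other 6 genes did not pass the test, and for Slc4a1, Insrr, Atp6v1b1 and Rhcg both bIRI libraries gave very different levels. By edgeR's quasi-likelihood test with Benjamini-Hochberg adjustment over 17967 genes, 2 of 10 genes fell, where 16.2% of all genes did, and 2 rose, where 18.9% did. Their median log2 fold change was -0.69, beside 0.08 over all genes tested. Without bIRI replicate 3 it was -1.42, beside 0.01 over all genes, and without bIRI replicate 1 it was -0.41, beside 0.02. With a correction for transcript length and GC content it was -0.26, beside 0.14. In RNA of kidney tissue, fewer cells of a type and less RNA per cell cannot be told apart.

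Among the exchangers, Slc26a4 (ENSMUSG00000020651, GRCm38 chromosome 12, 31519827 to 31559969) stood at 104, 83.0 and 91.2 CPM in Sham and at 31.2 and 33.1 CPM in bIRI replicates 1 and 3. Every bIRI value lay below every Sham value, and the bIRI values were close to each other. The gene fell 2.88-fold (log2 fold change -1.53, SE 0.21, edgeR adjusted p 0.000724).

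Slc4a1 (ENSMUSG00000006574, chromosome 11, 102348824 to 102366203) stood at 112, 94.5 and 80.5 CPM in Sham, and at 1.44 CPM and 62.1 CPM in replicates 1 and 3 of bIRI. These were 66 counts in the first of these libraries and 2846 in the other. The groups did not overlap, but the bIRI libraries differed 43.0-fold. The log2 fold change was -1.59 (SE 1.02, 95% interval -3.88 to 0.70, edgeR adjusted p 0.255). With bIRI replicate 1 as the lone library of its group, whose spread was then taken to be that of the others, it was -6.04 (edgeR adjusted p 0.000107). With bIRI replicate 3 as the lone library it was -0.69.

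Slc4a9 (ENSMUSG00000024485, chromosome 18), the other exchanger gene of type B cells, stood at 59.8, 46.5 and 58.7 CPM in Sham and at 34.2 and 70.3 CPM in bIRI replicates 1 and 3. The bIRI libraries lay on either side of Sham. Its log2 fold change was -0.07 (SE 0.27, 95% interval -0.68 to 0.53), and it was 0.16 with a correction for transcript length and GC content. Thus the type B exchanger genes Slc26a4 and Slc4a9 gave different calls, and the difference between their changes was not tested.

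Slc4a1 is also made by erythroid cells, where AE1 is the band 3 protein of the red cell membrane. The summed level of 10 erythroid genes was 42.9 to 218 CPM in Sham and 153 and 41.8 CPM in replicates 1 and 3 of bIRI, where Slc4a1 had 1.44 and 62.1 CPM. Rhag, a gene of the red cell membrane, was at 0 and 0.349 CPM in these libraries, and Alas2, the enzyme gene of erythroid heme synthesis, at 1.51 and 1.99 CPM. None of the 7 erythroid genes tested passed in bIRI against Sham with edgeR, and 0 of 7 had an unadjusted p under 0.05. Each library had 0 to 3 of the 10 erythroid genes at 0 counts. The part of erythroid RNA in the level of Slc4a1 was not tested.

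Of the 4 pump genes, Atp6v0a4 (ENSMUSG00000038600, chromosome 6, 38048483 to 38124586) stood at 393, 272 and 264 CPM in Sham and at 128 and 139 CPM in bIRI. Its groups did not overlap, and it fell 2.32-fold (log2 fold change -1.22, SE 0.24, edgeR adjusted p 0.00418). Of its 4973 exon bases, 259 are shared with exons of D630045J12Rik on the same strand and 62 with Tmem213 on the other, so some reads could not be assigned to a gene by position alone. D630045J12Rik itself stood at 68.4 to 96.7 CPM in Sham and at 41.4 to 43.5 CPM in bIRI. Its part in the level of Atp6v0a4 was not tested. Proximal tubule markers summed to 8297 to 9991 CPM in Sham and to 1179 and 1120 CPM in bIRI replicates 1 and 3. The part of cells other than intercalated cells in the level of Atp6v0a4 was not tested either.

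Atp6v1b1 (ENSMUSG00000006269, chromosome 6, 83742990 to 83758855) stood at 80.6, 70.8 and 73.5 CPM in Sham. In bIRI it was at 16.4 CPM in replicate 1, below all Sham libraries, and at 99.7 CPM in replicate 3, above all of them. Its log2 fold change of -0.37 (SE 0.55, 95% interval -1.59 to 0.86) did not pass the test and was 0.08 with the length and GC correction. With bIRI replicate 1 as the lone library of its group it was -2.19, and with replicate 3 it was 0.34.

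Atp6v1g3 (ENSMUSG00000026394, chromosome 1, 138273738 to 138289462) stood at 21.5, 22.5 and 31.9 CPM in Sham and at 34.9 and 63.0 CPM in bIRI. It rose 1.93-fold (log2 fold change 0.95, SE 0.32, edgeR adjusted p 0.0434). Atp6v0d2 (ENSMUSG00000028238, chromosome 4, 19876841 to 19922605) stood at 29.8, 28.4 and 29.5 CPM in Sham and at 38.1 and 55.5 CPM in bIRI. It rose 1.60-fold (log2 fold change 0.68, SE 0.18, edgeR adjusted p 0.0179). Neither gene's groups overlapped, and bIRI replicate 3 was the higher library for both.

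Both rises were lost without bIRI replicate 3, when the edgeR adjusted p was 0.286 for Atp6v1g3 and 0.0860 for Atp6v0d2, as without Sham replicate 1 or Sham replicate 2. Atp6v0d2 was also lost without Sham replicate 3, and Atp6v1g3 without BHBNa_bIRI replicate 2, which enters through the shared spread. Neither was called when each library was corrected for its own trend with transcript length and GC content, with log2 fold changes of 0.69 and 0.48. Atp6v0d2 is also known from osteoclasts and macrophages. Osteoclast genes summed to 68.7 to 77.4 CPM in Sham and 22.6 to 29.9 CPM in bIRI, with 1 of 4 genes tested called lower and 0 higher. That 1 gene, Acp5, made up most of the sum, at 65.2 to 74.1 CPM in Sham and 19.4 and 20.1 CPM in bIRI, while the list's median log2 fold change was 1.32. Values of Ctsk, Calcr and Ocstamp, none of them called, were 0.70, 1.94 and 1.95 on the log2 scale, and the osteoclast fusion genes Dcstamp and Ocstamp were at or below 0.149 and 0.280 CPM in every library. Macrophage genes summed to 104 to 159 CPM in Sham and to 180 and 118 CPM in bIRI replicates 1 and 3, with 3 of 7 genes called higher, 1 lower and a median log2 fold change of -0.29. The part of both cell types in the level of Atp6v0d2 was not tested.

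The transcription factor gene Foxi1 (ENSMUSG00000047861, chromosome 11, 34204338 to 34208089) stood at 36.6, 38.3 and 41.0 CPM in Sham and at 36.9 and 31.0 CPM in bIRI replicates 1 and 3. The groups overlapped, and bIRI replicate 1 lay within the Sham range. Its log2 fold change was -0.19 (SE 0.18, 95% interval -0.58 to 0.21, edgeR adjusted p 0.449) and 0.14 with the length and GC correction. The interval leaves room for a fall of up to 0.58 on the log2 scale.

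Insrr (ENSMUSG00000005640, chromosome 3, 87796951 to 87816101) stood at 27.0 to 33.8 CPM in Sham (n = 3) and at 2.04 and 21.7 CPM in bIRI replicates 1 and 3, a 10.6-fold difference between the bIRI libraries. Its log2 fold change was -1.35 (SE 0.70, 95% interval -2.91 to 0.21, edgeR adjusted p 0.158). The whole of Insrr lies within Pear1 on the opposite strand, with 0 shared exon bases.

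Rhcg (ENSMUSG00000030549, chromosome 7, 79593363 to 79617657) stood at 133, 135 and 153 CPM in Sham and at 29.9 and 110 CPM in bIRI replicates 1 and 3. Both bIRI values lay below Sham, the first far below. Its log2 fold change was -1.01 (SE 0.45, 95% interval -2.01 to -0.01), with an unadjusted p of 0.0485 and an edgeR adjusted p of 0.107. Gm45170 overlaps 1671 bases of Rhcg on the same strand, with 0 shared exon bases. It stood at 0.373 to 0.434 CPM in Sham, and at 0.153 and 6.50 CPM in bIRI replicates 1 and 3. The part of reads at this overlap in the level of Rhcg was not tested. Without bIRI replicate 3, Insrr, Rhcg, Slc4a1, Atp6v1b1 and Slc4a9 were all called lower, so that 7 of 10 genes were called lower and 0 higher, where 17.9% and 18.5% of all genes tested were.

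Set against all genes tested, the log2 difference of bIRI replicate 3 over bIRI replicate 1 was larger for Slc4a1 than for 99.99% of genes, and larger for Insrr, Atp6v1b1 and Rhcg than for 99.7%, 99.3% and 97.6%. For Slc26a4, Atp6v0a4 and Foxi1 it was larger than for 53.2%, 54.9% and 35.5% of genes. The 10 genes thus ranged from those that both bIRI libraries measured alike to those with some of the widest gaps of any gene. Markers of other distal segments were higher in bIRI replicate 3 as well: thick ascending limb markers summed to 1637 and 4607 CPM in bIRI replicates 1 and 3, distal convoluted tubule markers to 257 and 633, and principal cell markers to 613 and 1441. Proximal tubule markers summed to 1179 and 1120 CPM. Tubular injury markers summed to 26450 and 16570 CPM in bIRI replicates 1 and 3, against 570 to 696 CPM in Sham. Each of these injury genes was lower in bIRI replicate 3, from Krt20 at 719 and 41.9 CPM to Clu at 1832 and 1364 CPM. The part of this difference in the other gaps was not tested.

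**Figure D2:**
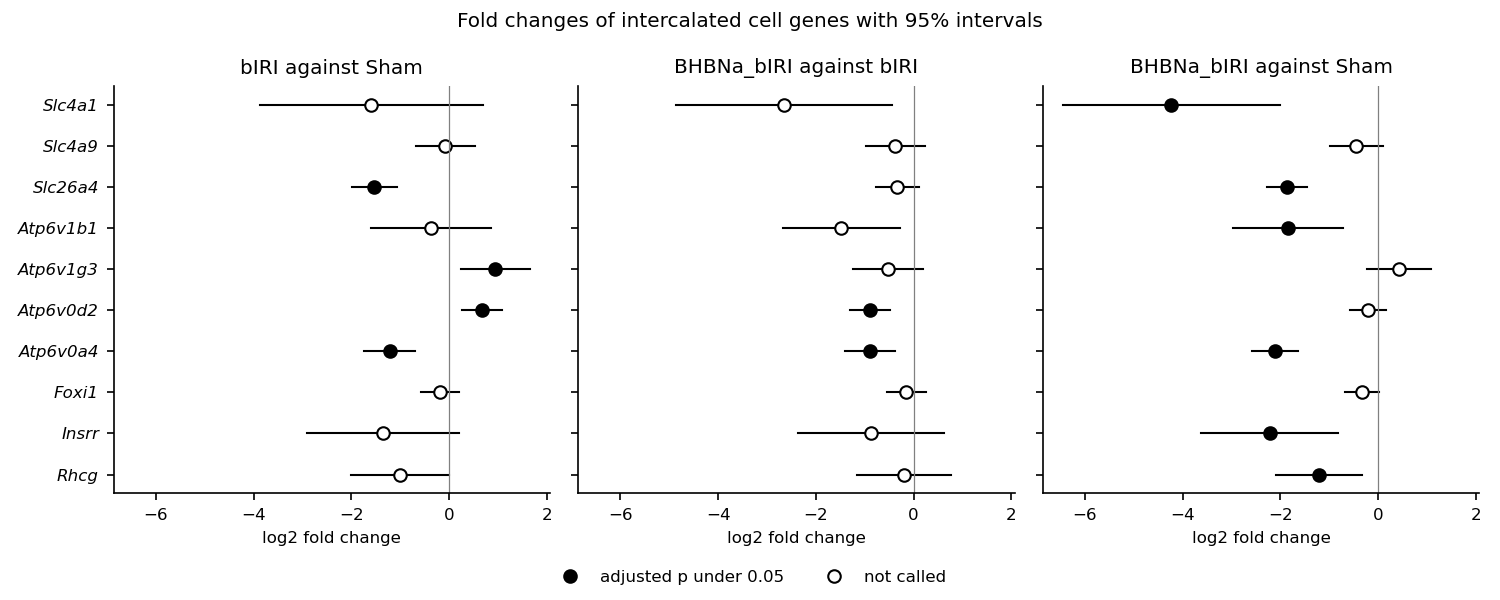
Log2 fold change of each gene in the 3 comparisons, with its 95% interval as a line, filled where the edgeR adjusted p was under 0.05. Intervals are widest for Slc4a1, and the filled points of Slc26a4 and Atp6v0a4 lie below 0 in both comparisons against Sham.

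The second comparison set BHBNa_bIRI against bIRI, that is, injury with BHB against injury without it. The pump genes Atp6v0a4 and Atp6v0d2 fell with BHB, 0 genes rose, and 8 of 10 were not called. EdgeR called 8.65% of all genes lower and 4.88% higher in this comparison. The median log2 fold change was -0.69 for the 10 genes and -0.05 for all genes tested. This median turned with the bIRI library used. Without bIRI replicate 3 it was 0.10 for the 10 genes and 0.04 for all genes, and without bIRI replicate 1 it was -0.86 and -0.04.

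Atp6v0a4 stood at 81.4, 73.4 and 60.8 CPM in BHBNa_bIRI, below both bIRI libraries at 128 and 139 CPM, and fell 1.86-fold (log2 fold change -0.89, SE 0.22, edgeR adjusted p 0.0362). Atp6v0d2 stood at 26.0, 23.9 and 25.7 CPM, below both bIRI libraries at 38.1 and 55.5 CPM, and also fell 1.86-fold (log2 fold change -0.89, SE 0.18, edgeR adjusted p 0.0288). With BHB, all 3 values of Atp6v0d2 also lay below every Sham value (28.4 to 29.8 CPM), and those of Atp6v0a4 lay farther below Sham than in bIRI.

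These calls were close to the threshold. Both were lost without bIRI replicate 3, without Sham replicate 1 or 2, and without any of the BHBNa_bIRI replicates, and Atp6v0a4 was lost without Sham replicate 3. Over all genes tested, too, 0 calls were left in this comparison without Sham replicate 1, Sham replicate 2 or BHBNa_bIRI replicate 1. With the length and GC correction their log2 fold changes were -0.78 and -0.57, and 0 of the 10 genes passed, where that correction left 2 calls among all genes tested.

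The genes that differed between the bIRI libraries could not be placed against them. Slc4a1 stood at 6.81, 2.80 and 5.65 CPM in BHBNa_bIRI, above bIRI replicate 1 and below bIRI replicate 3. Its log2 fold change was -2.64 (SE 0.99, 95% interval -4.86 to -0.43, edgeR adjusted p 0.0940). Against bIRI replicate 1 alone it was 1.80, and against replicate 3 alone it was -3.56.

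Insrr stood at 7.30, 5.47 and 6.71 CPM, again between both bIRI libraries. Against bIRI replicate 1 alone it was higher by 1.67 on the log2 scale, and against bIRI replicate 3 alone the log2 difference was -1.69. Rhcg, at 68.2, 45.4 and 69.2 CPM, did the same, with 1.02 and -0.80. Fits with 1 bIRI library cannot measure the spread within bIRI. The direction for both genes thus turned with the bIRI library that was used.

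Atp6v1b1 stood at 24.7, 20.1 and 17.7 CPM with BHB, above bIRI replicate 1 and below bIRI replicate 3. The log2 fold change was -1.48 (SE 0.54, edgeR adjusted p 0.0872), or 0.34 against bIRI replicate 1 alone. DESeq2 called it lower, with an adjusted p of 0.0264, and gave 3 genes lower in all.

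The other 4 genes did not pass the test between bIRI and BHBNa_bIRI either. Slc26a4 stood at 30.2, 25.9 and 20.3 CPM with BHB, just below both bIRI libraries (log2 fold change -0.33, SE 0.20, 95% interval -0.77 to 0.10). Slc4a9 stood at 39.4, 41.1 and 40.1 CPM, between both bIRI libraries (95% interval -0.98 to 0.22). Foxi1 stood at 35.3, 30.1 and 26.7 CPM (95% interval -0.54 to 0.25), and Atp6v1g3 at 46.4, 30.5 and 25.5 CPM (95% interval -1.24 to 0.20).

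The third comparison, BHBNa_bIRI against Sham, shares its libraries with the others and is not independent of them. Distances between BHBNa_bIRI libraries over these genes were 0.397 to 0.489, wider than in Sham, at 0.223 to 0.317, and narrower than in bIRI. Here 6 of 10 genes fell: Slc4a1, Slc26a4, Atp6v1b1, Atp6v0a4, Insrr and Rhcg. Of all genes tested, 22.2% were called lower and 21.3% higher, and 0 of the 10 genes rose. The median log2 fold change was -1.53, beside 0.04 for all genes.

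The largest fall was that of Slc4a1, from 95.5 ± 15.6 CPM (SD, n = 3) in Sham to 5.09 ± 2.06 CPM (SD, n = 3), a 18.8-fold difference (log2 fold change -4.23, SE 0.99, edgeR adjusted p 0.00776). Erythroid genes also fell in 3 of the 7 tested, Alas2, Hbb-bs and Hbb-bt, and their summed level was 25.6 to 54.7 CPM in BHBNa_bIRI. The part of erythroid RNA in the fall of Slc4a1 was not tested. Aqp6, a channel gene of type A cells, fell from 86.3 ± 10.2 to 24.3 ± 6.19 CPM (SD, n = 3 each; log2 fold change -1.83, SE 0.53).

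Atp6v0a4 fell 4.31-fold to 71.9 ± 10.4 CPM (log2 fold change -2.11, SE 0.21), and Slc26a4 fell 3.64-fold to 25.5 ± 4.95 CPM (log2 fold change -1.86, SE 0.18; SD, n = 3). Atp6v1b1 fell 3.60-fold to 20.8 ± 3.56 CPM, Insrr 4.66-fold to 6.49 ± 0.933 CPM, and Rhcg 2.30-fold to 60.9 ± 13.5 CPM (SD, n = 3). EdgeR adjusted p ran from 8.1e-05 for Slc26a4 to 0.0325 for Rhcg. Markers of neighbouring segments fell as well: 5 of 5 of the distal convoluted tubule, 5 of 7 of the thick ascending limb, and 3 of 7 tested principal cell markers, while 2 others of these rose. Their summed levels in BHBNa_bIRI were 141 to 160, 404 to 1044 and 1045 to 1099 CPM, against 512 to 825, 2375 to 3927 and 753 to 941 CPM in Sham.

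Foxi1, Slc4a9, Atp6v0d2 and Atp6v1g3 were not called. The libraries of both groups did not overlap for Foxi1, Slc4a9 and Atp6v0d2, as for the 6 genes that fell. The share of all genes tested without such overlap was not counted, so this is no measure of a change. Foxi1 had 30.7 ± 4.35 CPM with BHB and 38.6 ± 2.25 CPM in Sham (SD, n = 3), with a log2 fold change of -0.33 (95% interval -0.69 to 0.02). Slc4a9 had a log2 fold change of -0.45 (95% interval -0.995 to 0.0911), Atp6v0d2 of -0.21 (95% interval -0.58 to 0.16) and Atp6v1g3 of 0.43 (95% interval -0.22 to 1.08). Each interval of Foxi1, Slc4a9 and Atp6v0d2 thus held falls of 0.58 or more on the log2 scale.

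Of the 6 falls, those of Slc4a1, Slc26a4 and Atp6v0a4 remained without any 1 library. Rhcg was lost without BHBNa_bIRI replicate 1, 2 or 3 and without each Sham replicate, and without BHBNa_bIRI replicate 2 or 3 the count was 3 of 10. Without a filter on low counts, 2 of 10 were called, Slc26a4 and Atp6v0a4.

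The wider set of intercalated cell genes was examined with 15 other genes, all of them detected in every library. In bIRI against Sham, 3 of the 15 fell, 1 rose and 11 were not called, with a median log2 fold change of -0.44. Of all genes tested, 16.2% were called lower and 18.9% higher. The number called over all genes also changed with every library left out, in each comparison. The carbonic anhydrase gene Car12 fell by 1.84 on the log2 scale (SE 0.37), the ammonia transporter gene Rhbg by 1.40 (SE 0.41) and the homeobox gene Hmx2 by 0.97 (SE 0.27). Slc4a8, a sodium-driven bicarbonate exchanger gene, rose by 1.22 (SE 0.37). It stood at 6.43 to 10.4 CPM in Sham and at 11.45 and 29.6 CPM in bIRI replicates 1 and 3. Aqp6 stood at 76.2 to 96.5 CPM in Sham and at 13.7 and 89.6 CPM in bIRI replicates 1 and 3, a split of the kind seen for Slc4a1. Without bIRI replicate 3, 6 of the 15 were called lower, and without Sham replicate 1 or 3, 1 was. The count of 1 higher was 4 without bIRI replicate 1 and 0 without bIRI replicate 3, BHBNa_bIRI replicate 3 or any 1 Sham replicate.

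In BHBNa_bIRI against bIRI, 3 of the 15 fell, 0 rose, and the median log2 fold change was -0.70. Of all genes tested, 8.65% were called lower and 4.88% higher. The anion transporter gene Slc26a7 fell by 2.88 (SE 0.72) from 0.700 and 6.46 CPM in bIRI to 0.462 to 0.513 CPM. The transcription factor gene Tfcp2l1 fell by 0.86 (SE 0.24), from 248 and 390 CPM to 168 to 181 CPM, and Hepacam2 by 0.86 (SE 0.24). The count was 10 without bIRI replicate 1, and 0 without any other 1 library or with the length and GC correction. Against Sham, 6 of the 15 fell in BHBNa_bIRI and 0 rose, where 22.2% of all genes were called lower and 21.3% higher. Car12 fell farthest, by 2.54 (SE 0.32), and Aqp6 by 1.83. Oxgr1, a receptor gene for alpha-ketoglutarate, fell by 1.65 (SE 0.36) and Hepacam2 by 1.49 (SE 0.22). That count was 10 without either bIRI library, and 4 without Sham replicate 1 or 2 or BHBNa_bIRI replicate 2 or 3.

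The proton pump also acidifies lysosomes and endosomes in most cells, and 19 genes encode its other subunits and accessory proteins, among them widely used subunits and isoforms of restricted expression. In bIRI against Sham, 9 of 19 fell and 0 rose, with a median log2 fold change of -0.58. Of all genes tested, 16.2% were called lower and 18.9% higher. Atp6v1c2 fell by 1.23 (SE 0.35), Atp6v0d1 by 1.19 (SE 0.25), Atp6v0e2 by 1.19 (SE 0.24) and Atp6v1e1 by 1.01 (SE 0.22). The count was 4, 6 and 5 without Sham replicates 1, 2 and 3, and 15 without bIRI replicate 1.

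With BHB against bIRI, 2 of 19 rose, Atp6v1f by 1.18 (SE 0.32) and Atp6v0b by 1.07 (SE 0.30), and 0 fell. Of all genes tested, 4.88% were called higher and 8.65% lower. In bIRI replicates 1 and 3, Atp6v1f stood at 159 and 92.3 CPM, and Atp6v0b at 127 and 65.5 CPM. The count was 11 without bIRI replicate 1, 1 without bIRI replicate 3 or BHBNa_bIRI replicate 2, and 0 without any other 1 library or with the length and GC correction. Against Sham, 10 of 19 fell in BHBNa_bIRI and 1 rose, where 22.2% of all genes were called lower and 21.3% higher. Atp6v1a, the catalytic subunit gene, fell farthest, by 1.29 (SE 0.19). Atp6v1c2 fell by 1.27 (SE 0.30) and Atp6v1b2 by 1.05 (SE 0.32), while Atp6v1f rose by 0.84 (SE 0.27). The count of 10 was 3 without any 1 Sham replicate or BHBNa_bIRI replicate 3, and 4 without BHBNa_bIRI replicate 2. That of 1 higher was 0 without Sham replicate 1 or 2 or BHBNa_bIRI replicate 1 or 3, and 3 without either bIRI library, and it was 0 with the length and GC correction.

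**Figure D3:**
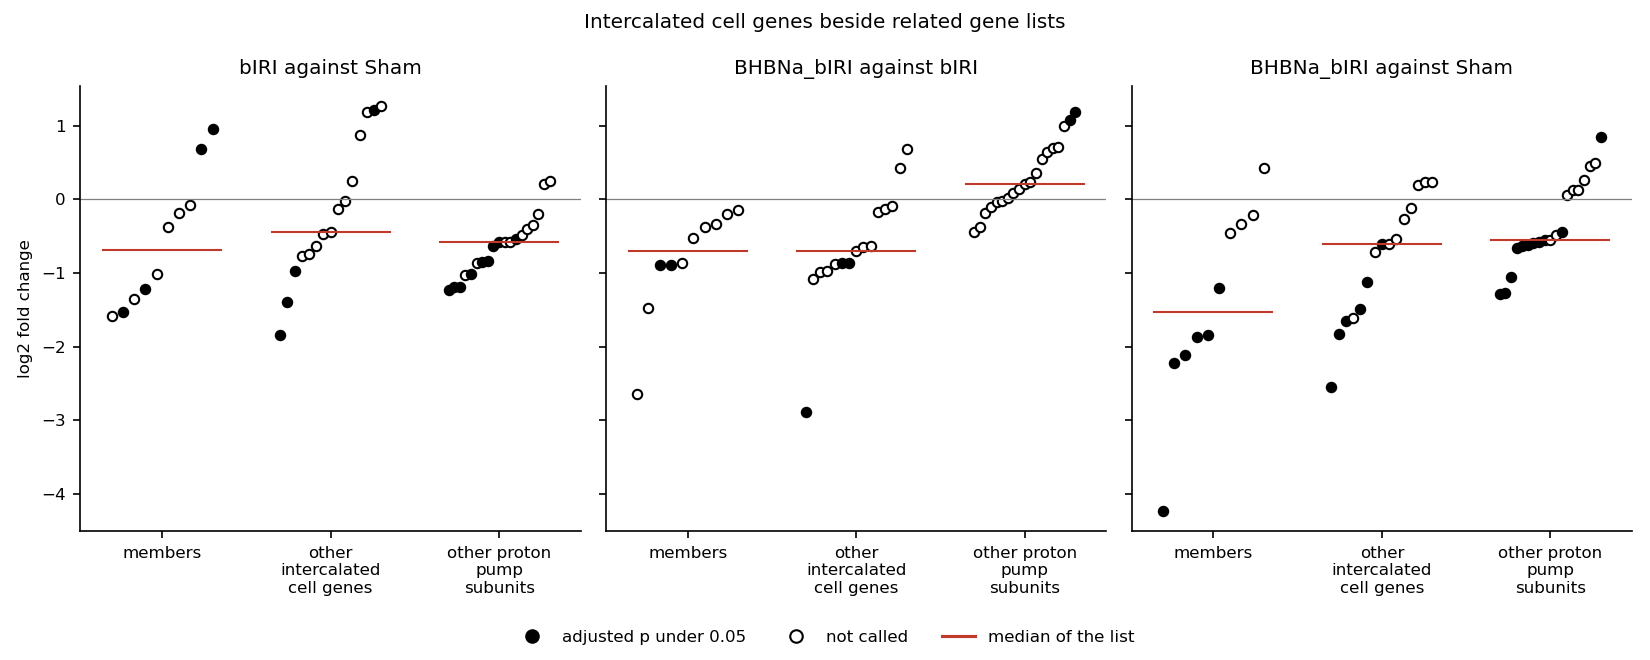
Log2 fold change of every gene in the 10 intercalated cell genes (members), the 15 other intercalated cell genes and the 19 other proton pump subunits, in the 3 comparisons, sorted within each list, filled where called and with a line at the median. Against Sham, the members' median in BHBNa_bIRI is -1.53 and those of the other lists are -0.61 and -0.54.

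Levels set against a relative within the same library do not depend on scaling. B subunits of the pump are encoded by Atp6v1b1 and by the widely used Atp6v1b2. The ratio of Atp6v1b1 to Atp6v1b2 CPM was 0.129, 0.129 and 0.139 in Sham, 0.0404 and 0.664 in bIRI replicates 1 and 3, and 0.0916, 0.0828 and 0.0569 in BHBNa_bIRI. All BHBNa_bIRI ratios lay below Sham, and both bIRI libraries lay outside the range of the other groups, on opposite sides. A ratio moves with either gene. Atp6v1b2 itself stood at 530 to 623 CPM in Sham, 407 and 150 CPM in bIRI replicates 1 and 3, and 243 to 311 CPM in BHBNa_bIRI.

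For the a subunits, the ratio of Atp6v0a4 to Atp6v0a1 was 3.13 to 4.999 in Sham, 1.05 and 1.99 in bIRI and 0.935, 0.799 and 0.541 in BHBNa_bIRI. The 3 groups did not overlap and stood in that order. For the d subunits, the ratio of Atp6v0d2 to Atp6v0d1 was 0.145 to 0.160 in Sham, 0.359 and 0.902 in bIRI and 0.171 to 0.203 in BHBNa_bIRI. For the G subunits, the ratio of Atp6v1g3 to Atp6v1g1 was 0.0797 to 0.0895 in Sham, 0.160 and 0.594 in bIRI and 0.0769 to 0.129 in BHBNa_bIRI. In bIRI the d and G ratios lay above every library of the other groups. Their denominators were lower there than in Sham. Atp6v0d1 stood at 177 to 203 CPM in Sham and at 106 and 61.6 CPM in bIRI replicates 1 and 3. Atp6v1g1 stood at 262 to 357 CPM in Sham and at 218 and 106 CPM in bIRI replicates 1 and 3.

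The ratio of the type A exchanger gene Slc4a1 to the type B exchanger gene Slc26a4 was 1.08, 1.14 and 0.883 in Sham. It was 0.226, 0.108 and 0.278 in BHBNa_bIRI, below every Sham library, and 0.0463 and 1.88 in bIRI replicates 1 and 3, which lay below and above all other libraries. The ratio of Rhcg to Rhbg was 23.0 to 29.0 in Sham, 21.3 and 39.6 in bIRI and 17.1 to 21.3 in BHBNa_bIRI. Over the 18 comparisons of these 6 ratios, two-sided exact permutation tests cannot go below p = 0.1 with 3 against 3 libraries or p = 0.2 with 3 against 2, and the Benjamini-Hochberg adjusted values were 0.300 or more. None therefore passed.

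**Figure D4:**
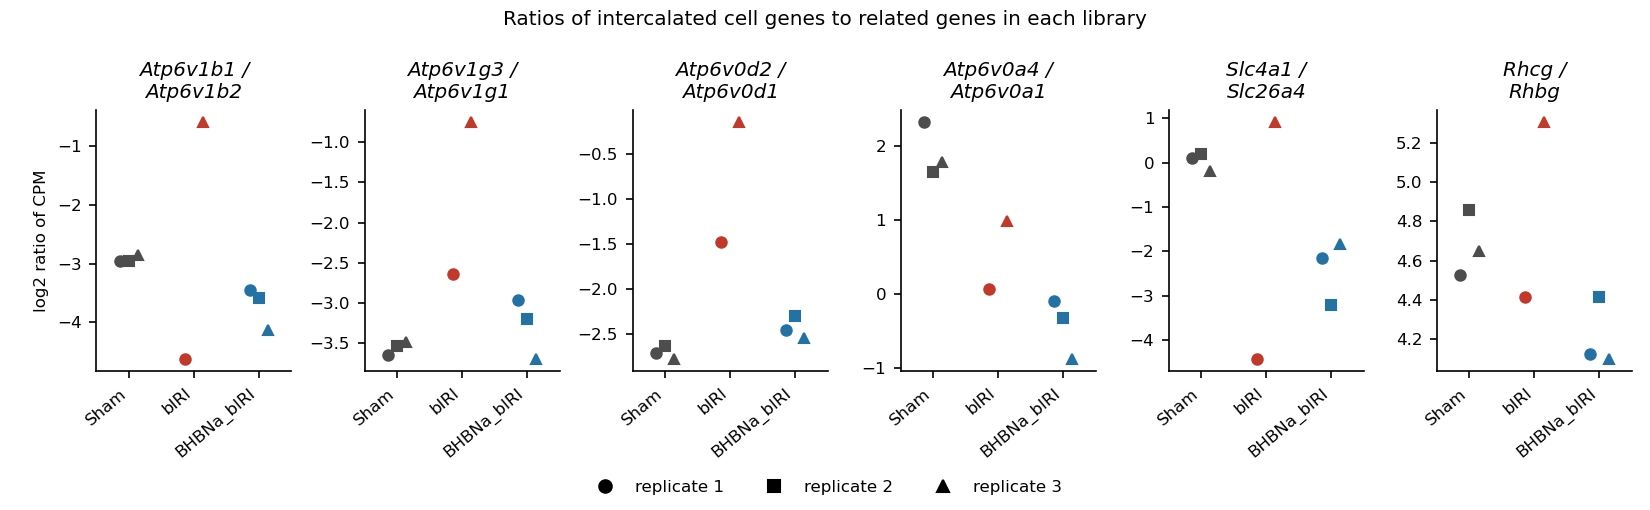
Log2 ratio of the CPM of each intercalated cell gene to a related gene in every library, by group, with symbols for the replicate; each panel has its own axis. In the panel of Atp6v0a4 over Atp6v0a1 the 3 groups do not overlap, and in that of Slc4a1 over Slc26a4 the bIRI libraries lie at the bottom and the top.

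The genes whose log2 CPM followed the mean of the 10 genes most closely over the 8 libraries, among those with a mean of at least 5 CPM, were Dusp9, Rmdn1, ENSMUSG00002076083 (without a symbol in the annotation), Serhl and Lrrc56. Their Pearson correlations with that mean were 0.984 to 0.986, which is a description, as the points share the groups and the libraries. Dusp9, a phosphatase gene, stood at 13.6 to 14.8 CPM in Sham, 2.19 and 9.73 CPM in bIRI replicates 1 and 3, and 1.68 to 3.54 CPM in BHBNa_bIRI. Within the 10, Slc4a1 and Atp6v1b1 followed the mean most closely, at 0.989 and 0.981, while Foxi1, Atp6v0d2 and Atp6v1g3 were at 0.523, 0.312 and -0.084. Each of the 10 is itself part of that mean, so these values are a description only.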

How the data were processed

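The authors deposited raw read counts per gene, 1 table for each library. The submitters' processing notes name HISAT2, featureCounts, Subread, DESeq2 and the build mm10; versions, annotation and strand setting are not given in the sources used here. Symbols, positions and exons came from GENCODE M21 (GRCm38, the assembly also called mm10), and length and GC were taken from each gene's longest coding transcript, where it had one, and otherwise from its longest transcript. All members, lists and tests were chosen with earlier results of these data known.

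Counts of 8 libraries were filtered with filterByExpr, scaled by TMM and fitted with 1 mean per group in edgeR 4.0.16 (R 4.3.3), quasi-likelihood with robust dispersion, 5 residual degrees of freedom. Two-sided p-values were adjusted by Benjamini-Hochberg over 17967 genes, and 0.05 was the threshold. A standard error is the log2 fold change divided by the square root of F, and 95% intervals use the t distribution. The procedure was run on simulated data with the same spread in every group, which does not cover the wide gap between the bIRI libraries. Correlations used log2(CPM + 0.5). Limits such as 3 counts cover counting error only.

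Alternatives were DESeq2 1.42.0, RLE factors, scaling without mitochondrially encoded and the 20 most abundant genes, no filter, the replicate number as a block, a correction for transcript length and GC content (natural splines with 5 degrees of freedom, fitted per library as offsets), all 9 tables, and leaving out each library. Genes named are the 10 members, up to 4 called genes with the largest change per list and comparison, the partners of the ratios and the 5 genes most like the members' mean. Aqp6 in bIRI, single marker genes and genes that overlap a member were named after their values were seen.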

Additional observations from a re-analysis of the deposited data

How the results depend on the processing

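In bIRI against Sham, 2 genes were called lower in all alternatives that kept the 8 libraries, with 3 from all 9 tables; leaving out 1 library gave 2 to 7 lower and 0 to 2 higher. The 2 higher calls became 0 with the replicate block, with the length and GC correction and with both. In BHBNa_bIRI against bIRI, the 2 lower calls became 0 under each of these settings and 4 with all 9 tables, and leaving out 1 library gave 0 to 7 lower and 0 to 2 higher. In BHBNa_bIRI against Sham, the 6 lower calls became 2 without a filter on low counts and 3 to 8 without 1 library. Same-numbered libraries of different groups had correlations of their deviations from -0.351 to 0.162. Those with bIRI hold little information, since the deviations of its 2 libraries mirror each other. Sham replicate 3, for example, had 0.351 with bIRI replicate 1 and -0.351 with bIRI replicate 3. Between Sham and BHBNa_bIRI, same-numbered libraries had 0.0182 to 0.162 and the others -0.25 to 0.196. Whether the replicate numbers pair the libraries was not tested. The replicate block gave 6 lower calls in BHBNa_bIRI against Sham. Over all genes tested, 2431 were called in BHBNa_bIRI against bIRI, 4137 by DESeq2, 5847 with all 9 tables, 2 with the length and GC correction, 0 with the block, and 0 to 8381 without 1 library.

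Of 480 refitted log2 fold changes of the members, 399 kept their direction and side of the threshold, 50 lost a call, 17 gained one and 14 changed sign. With the length and GC correction in bIRI against Sham, Slc4a9, Atp6v1b1 and Foxi1 moved to 0.16, 0.0826 and 0.14; with the block added, Slc4a9 and Foxi1 were at 0.0677 and 0.13. The block moved Rhcg to 0.0918 in BHBNa_bIRI against bIRI. Without 1 library, bIRI against Sham ran from -0.69 to 0.28 for Slc4a9 and from -2.19 to 0.34 for Atp6v1b1. BHBNa_bIRI against bIRI ran from -3.56 to 1.80 for Slc4a1, -0.75 to 0.23 for Slc4a9, -2.20 to 0.34 for Atp6v1b1, -0.27 to 0.0416 for Foxi1, -1.69 to 1.67 for Insrr and -0.80 to 1.02 for Rhcg. Differences of log2 ratios in bIRI against Sham ran from -1.71 to 2.33 for Atp6v1b1 to Atp6v1b2, -4.47 to 0.87 for Slc4a1 to Slc26a4 and -0.26 to 0.63 for Rhcg to Rhbg. In BHBNa_bIRI against bIRI they ran from -3.13 to 0.90 and from -3.31 to 2.03 for the first 2 of these pairs. The cause of these changes was not tested.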
